A study of Mus musculus with 4 samples.

Results

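Stra8 or Kit positive spermatogonia were germ cells of a mouse primary spermatogonial culture in which at least 1 transcript of Stra8 or Kit was counted. A barcode entered when it held more than 400 and fewer than 4000 genes and under 10% mitochondrial transcripts, when the germ cell genes Dazl, Tex15, Stk31 and Epcam together gave at least 2 unique molecular identifiers (UMIs, each standing for 1 captured transcript), and when that sum was above the sum of the fibroblast genes Col1a1, Col1a2, Sparc and Dcn. Of 24278 barcodes, 23207 passed the cell filter, 10360 of these passed the germ cell gate, and 3352 germ cells, or 32.4%, carried Stra8 or Kit. The other 7008 germ cells, with no UMI of either gene, served as the comparison within each library. Since Stra8, Kit and the 8 gate genes chose the cells, their values in positive against negative cells are a description and were not tested.

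The cells were Thy1-sorted testis cells of 3 postnatal day 6 male mice grown on STO feeder cells (a mouse embryonic fibroblast line) in medium with GDNF and FGF. PBS (vehicle) or extracellular vesicles (EVs) of postnatal day 7 testes at 1 µg/ml were given for 3 days, and droplet single-cell RNA-seq was run on 2 libraries of each arm. No genetic modification is given for either arm, and GDNF and FGF were present in both. UMI counts were used from vehicle replicate 1, vehicle replicate 2 and EV replicate 1, and from EV replicate 2 just the 6794 barcodes were read, with its expression not used here.

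Spermatogonia begin as undifferentiated cells that depend on GDNF, which signals through the receptor RET and its co-receptor GFRA1. Retinoic acid then drives their differentiation: it switches on Stra8, a regulator that is later needed for entry into meiosis, and the cells come to depend on KIT, the receptor tyrosine kinase for stem cell factor. In vivo, KIT marks differentiating spermatogonia, whereas GFRA1 marks the most undifferentiated ones.

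Promoter sequences are shown for the pair of genes that chose the cells, for Sycp3, which was higher in them, and for Gfra1, which was lower, because retinoic acid receptors are known to bind direct repeats of AGGTCA-like half-sites. Each window runs 5′ to 3′ from 250 bases before to 50 bases after the RefSeq start of the gene (build GRCm38.p6), at chr6:34920698-34920997 on the plus strand for Stra8, chr5:75574737-75575036 on the plus strand for Kit, chr10:88459337-88459636 on the plus strand for Sycp3 and chr19:58455349-58455648 on the minus strand for Gfra1. Capitals mark half-sites, searched on both strands: the letters AGGTCA, the letters GGGTCA, the letters AGTTCA and the letters GGTTCA.
Stra8: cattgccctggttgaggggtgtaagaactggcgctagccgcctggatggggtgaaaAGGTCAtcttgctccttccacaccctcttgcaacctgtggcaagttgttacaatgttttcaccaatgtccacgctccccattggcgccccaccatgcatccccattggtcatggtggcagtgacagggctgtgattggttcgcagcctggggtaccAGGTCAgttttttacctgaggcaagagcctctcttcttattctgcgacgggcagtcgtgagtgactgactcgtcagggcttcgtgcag
Kit: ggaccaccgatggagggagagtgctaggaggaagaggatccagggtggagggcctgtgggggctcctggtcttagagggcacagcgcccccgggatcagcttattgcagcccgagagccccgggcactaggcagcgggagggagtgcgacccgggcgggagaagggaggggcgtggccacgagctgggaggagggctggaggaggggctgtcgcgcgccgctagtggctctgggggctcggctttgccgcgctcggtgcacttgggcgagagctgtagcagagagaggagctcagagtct
Sycp3: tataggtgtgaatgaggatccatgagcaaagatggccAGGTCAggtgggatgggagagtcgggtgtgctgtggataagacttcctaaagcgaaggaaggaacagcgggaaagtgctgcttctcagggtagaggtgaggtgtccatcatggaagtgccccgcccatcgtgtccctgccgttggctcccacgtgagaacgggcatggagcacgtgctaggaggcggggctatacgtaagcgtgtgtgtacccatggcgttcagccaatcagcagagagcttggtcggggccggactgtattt
Gfra1: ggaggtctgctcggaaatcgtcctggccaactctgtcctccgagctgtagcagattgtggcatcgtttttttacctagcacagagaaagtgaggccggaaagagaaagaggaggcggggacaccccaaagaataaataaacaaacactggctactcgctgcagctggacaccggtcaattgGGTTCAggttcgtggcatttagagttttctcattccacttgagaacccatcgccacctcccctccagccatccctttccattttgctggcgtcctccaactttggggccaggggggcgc
The Stra8 window held 2 AGGTCA half-sites, which began 194 and 38 bases before the start. The Sycp3 window held 1 AGGTCA, 213 bases before the start, the Gfra1 window held 1 GGTTCA, 69 bases before it, and the Kit window held none of these letters. Of 32851 promoter windows of the same length, 43.7% held at least 1 of the half-sites, 16.3% AGGTCA and 10.4% GGTTCA. A match of letters is a description of the window and not a binding site.

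The 2 vehicle libraries gave nearly all members. Vehicle 1 held 1560 positive cells of 4854 germ cells, vehicle 2 held 1758 of 5264, and EV 1 held 34 of 242. Of the 3352 members, 2509 (74.9%) carried Stra8 without Kit, 498 (14.9%) Kit without Stra8, and 345 (10.3%) both. Most were called on a single transcript: 1099 of the vehicle 1 members, 1178 of the vehicle 2 members and 29 of the EV 1 members had 1 UMI of the pair, and the highest sums were 9, 8 and 3 UMIs per cell. Just inside the germ gate, at a germ sum of 2, lay 166, 159 and 3 positive cells with median totals of 1585, 1763 and 1267 UMIs. Just outside, at a sum of 1, lay 101, 86 and 12 Stra8 or Kit carrying cells with medians of 1496, 1551.5 and 1107.5 UMIs.

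Library totals were 23686047, 27444797 and 10793232 UMIs in vehicle 1, vehicle 2 and EV 1. Median totals per positive cell were 2204, 2448.5 and 1588.5 UMIs, against 1888, 2034 and 1267.5 in negative germ cells. At most 22 barcodes were shared between a pair of libraries, and 0 were shared among positive cells. Over the summed positive cells, no pair of libraries agreed within counting noise (chi-square for each degree of freedom of 1.64 between the vehicle libraries, and of 1.38 and 1.36 between each of them and EV 1), so none looked like a library deposited again. Scrublet gave its highest scores to 167, 188 and 2 of the positive cells, which were kept in the main comparison.

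Germ cell genes that the gate had not used were high in the members. Ddx4, Dnd1, Sall4, Mael, Tdrd5 and Taf4b summed to 522, 529 and 532 CPM (counts per 1000000 UMIs) in positive cells of vehicle 1, vehicle 2 and EV 1, and to 22.9, 20.5 and 4.18 CPM in fibroblast-gated cells. They were not particular to the members: matched cells of vehicle 1 held 525 CPM if positive and 489 CPM if negative. Their median log2 fold change between matched positive and negative cells was -0.03, with 1 gene higher. Fibroblast transcripts were low but present. Col3a1, Col5a1, Pdgfra, Fn1, Lum, Postn and Thy1, none of them used by the gate, summed to 181, 182 and 297 CPM in matched positive cells and to 222, 221 and 432 CPM in matched negative cells, where the EV 1 values rest on 16 against 23 UMIs with intervals that overlapped, with 1594, 1654 and 1536 CPM in fibroblast-gated cells. Lum was at 0 in every matched sum. Markers of other testis cells stayed at or near 0: in the 3 libraries Leydig cell genes summed to 0 to 8.74 CPM in positive cells and mast cell genes to at most 1 UMI, with Hsd3b1, Insl3 and Adgre1 at 0. Sertoli cell genes summed to 32.6, 32.9 and 48.4 CPM, mostly Sox9, which was also read at 277 CPM in fibroblast-gated cells of vehicle 1, while Amh was at 0. Endothelial genes summed to 10.6 to 16.1 CPM, and peritubular myoid and macrophage genes to 5.95 to 7.07 CPM in the vehicle libraries and to 2 UMIs each in EV 1.

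Stra8 or Kit was counted in a minority of germ cells of each library, and in a smaller one of EV 1. The share of germ cells with a UMI of either gene was 32.1% (95% Wilson interval 30.8 to 33.5%) in vehicle 1, 33.4% (32.1 to 34.7%) in vehicle 2 and 14.0% (10.2 to 19.0%) in EV 1. Intervals and floors here cover counting error only. Stra8 alone was read in 27.4%, 28.5% and 10.3% of germ cells, and Kit in 7.81%, 8.61% and 4.55%. The intervals of the 2 vehicle libraries overlapped, and EV 1 lay 18.7 percentage points below their mean (vehicle SD 0.89 points, n = 2). No test between the arms was made, since an exact permutation test over 3 libraries cannot reach 0.05.

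The share followed depth. In vehicle 1 it went from 16.1% of germ cells with 500 to 1000 UMIs to 60.6% of those with 4000 or more, and in vehicle 2 from 13.0% to 60.8%. With every germ cell thinned to 1000 UMIs and shallower cells left out, the share was 18.0% (17.0 to 19.2%) of 4705 cells in vehicle 1, 17.4% (16.4 to 18.4%) of 5149 in vehicle 2 and 12.6% (8.59 to 18.0%) of 191 in EV 1. After thinning the EV interval overlapped those of both vehicle libraries, and the EV value lay 5.14 points below the vehicle mean. Among cells with 1000 to 2000 UMIs it did not overlap them: the shares were 25.4% (23.7 to 27.2%), 25.3% (23.5 to 27.2%) and 14.9% (10.2 to 21.2%), a gap of 10.5 points. The EV cells were still the shallower ones within that range, with median totals of 1592, 1623 and 1380 UMIs.

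Fibroblast-gated cells gave the background. They held Stra8 or Kit in 1.79%, 2.25% and 0.151% of cells at median depths of 3646, 3955 and 2453.5 UMIs, and in 0.465%, 0.585% and 0.0815% after thinning. The germ cell shares were above this background in each library, also after thinning. The background itself was lower in EV 1 than in either vehicle library, and its part in the EV share was not tested.

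**Figure D1:**
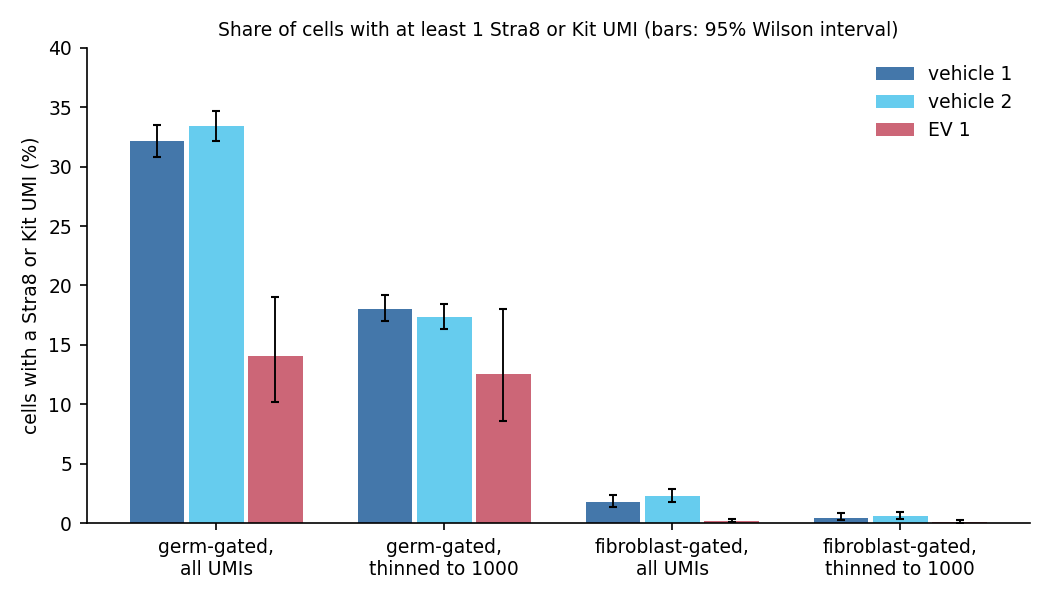
Share of cells with at least 1 Stra8 or Kit UMI in percent, for germ-gated and fibroblast-gated cells of the 3 libraries, with all UMIs and after thinning to 1000 UMIs per cell. Bars are shares and whiskers are 95% Wilson intervals. The germ-gated shares of 32.1%, 33.4% and 14.0% draw closer, to 18.0%, 17.4% and 12.6%, once depth is equal, and stand above the fibroblast-gated cells in both settings.

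Kit was more abundant in cells that carried Stra8. A Kit UMI was found in 11.1%, 13.0% and 8.0% of Stra8 positive germ cells and in 6.55%, 6.85% and 4.15% of Stra8 negative ones in vehicle 1, vehicle 2 and EV 1. These cells were taken from all germ cells by Stra8 alone, whatever their Kit, so Kit could be tested between them. After matching Stra8 positive to Stra8 negative cells 1 to 1 on their other UMIs, Kit was higher by 0.62 ± 0.12 (log2 fold change ± SE, adjusted p = 0.000113, edgeR quasi-likelihood test on sums per library). In the reverse comparison a Stra8 UMI was found in 39.1%, 43.0% and 18.2% of Kit positive cells and in 26.4%, 27.1% and 9.96% of Kit negative ones. Stra8 was higher in depth-matched Kit positive cells by 0.46 ± 0.11 (adjusted p = 0.00868). Cells with both genes (148, 195 and 2) enter both comparisons, so these are 1 association read from 2 sides. The EV 1 shares of 8.0% and 18.2% rest on the same 2 cells, of 25 and of 11. Their Wilson intervals overlapped those of the negative cells. Both differences had the same direction in both vehicle libraries before matching, and in EV 1 on those 2 cells. With vehicle 1 or vehicle 2 left out neither passed the threshold (0.644 and 0.55 for Kit, 0.402 and 0.418 for Stra8), nor did either in DESeq2 (0.585 and 0.423).

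The question of what else marks these cells was put to the whole transcriptome. Positive cells read less Gfra1, Ret and Lhx1 and more Sycp3, Uchl1 and Sohlh1, with more mitotic transcripts, than germ cells of the same library and depth without Stra8 and Kit. The matched sums held 1540, 1724 and 32 positive cells in vehicle 1, vehicle 2 and EV 1, and as many negative ones, with medians of 2193 against 2191, 2427.5 against 2425.5 and 1536.5 against 1540 UMIs. EV 1 added 53849 UMIs to the positive sums beside 3755461 and 4605395 from the vehicle libraries, so the vehicle cells carried the fit. Of 12998 genes tested, 123 (0.946%) were higher and 269 (2.07%) lower in positive cells at an adjusted p under 0.05, with a median log2 fold change over all genes of -0.0024. The vehicle libraries carried the calling, so their shared direction (390 of the 392 genes) is no support for it. EV 1 had the same direction for 129 of the 190 genes with at least 10 UMIs there. It was part of the fit too, so this count is a description and no outside support. Changes were small: 4 genes were more than 2-fold higher and 30 more than 2-fold lower.

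These calls rest on both vehicle libraries and on edgeR. Without vehicle 1 or without vehicle 2 no gene passed (176 and 122 genes had an unadjusted p under 0.05), and DESeq2 on the same sums called 0 (87 at an unadjusted p under 0.05), while without EV 1 the calls were 185 higher and 343 lower. With every cell thinned to 1000 UMIs in place of matching, 67 genes were higher and 122 lower, and 28 of the 56 genes followed through every setting kept their call, with Sohlh1, Id4, Tex11, Lin28b and Hmga2 among those that lost it. The study describes the libraries of an arm as independent experiments. Between these 3 libraries edgeR estimated a spread close to counting noise, with a median trended dispersion of 0.000243 against 0.0508 in DESeq2. The small p-values rest on that estimate.

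**Figure D2:**
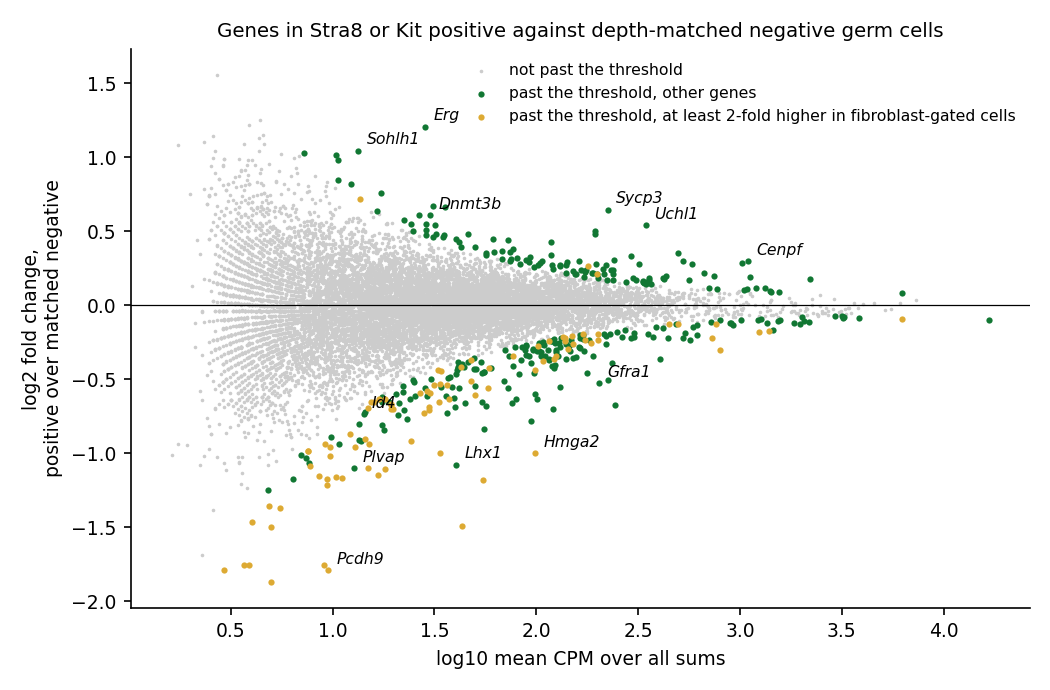
Log2 fold change of positive over matched negative germ cells against log10 mean CPM for the 12998 genes tested. Grey points did not pass the threshold; gold points passed and were at least 2-fold higher in fibroblast-gated cells, and green points are the other genes that passed. Sycp3, Uchl1 and Erg lie among the 123 higher genes and Gfra1, Lhx1 and Hmga2 among the 269 lower ones, with gold points almost wholly on the lower side.

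Several genes of the undifferentiated state were lower in positive cells. Of 32 such genes, 27 could be tested, 7 were lower and 0 higher (0 at an unadjusted p under 0.05), with a median log2 fold change of -0.33 beside -0.0024 over all genes. Summed over the list, positive cells held 1201 against 1422 CPM in matched negative cells of vehicle 1 and 1259 against 1488 CPM in vehicle 2. The sum went the other way in EV 1, at 984 CPM (737 to 1287, 53 UMIs) against 676 CPM (473 to 935, 36 UMIs), with counting intervals that overlapped. Gfra1 (chr19:58235604-58455909, minus strand), the GDNF co-receptor, was read at 160 CPM in positive and 233 CPM in negative cells of vehicle 1, and at 175 and 250 CPM in vehicle 2, with 4 and 1 UMIs in EV 1. Its ratio of positive to negative was 0.69 (exact 95% interval 0.62 to 0.76) and 0.70 (0.64 to 0.77), and its log2 fold change was -0.53 ± 0.06 (adjusted p = 6.69e-18). Ret, the signalling receptor of that complex, was at 74.0 against 114 CPM and 89.5 against 112 CPM, with a log2 fold change of -0.46 ± 0.08 (adjusted p = 2.03e-06). The receptor and the co-receptor were thus lower in both vehicle libraries, while EV 1 held too few UMIs of either to show a direction.

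Lhx1, a GDNF-responsive transcription factor gene on chr11:84518284-84525535 (minus strand), was at 25.6 against 54.0 CPM in vehicle 1 and 27.1 against 56.7 CPM in vehicle 2, with 0 and 1 UMI in EV 1. Its log2 fold change of -1.08 ± 0.13 (adjusted p = 7.16e-15) was 1 of the 12 lowest among genes named by rule. Plvap, used as a marker of stem-like spermatogonia, was at 6.12 against 16.3 and 9.99 against 18.8 CPM (-1.10 ± 0.23, adjusted p = 0.00025). Dusp6, which encodes a phosphatase that restrains ERK, had a log2 fold change of -0.77 (adjusted p = 0.000355), Id4, an inhibitor of DNA binding gene that marks spermatogonial stem cells, one of -0.74 (adjusted p = 0.0261) and Foxc2 one of -0.62 (adjusted p = 0.0018).

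Other genes of that list did not pass the test. Zbtb16, which encodes the transcription factor PLZF, was at 165 against 171 CPM in vehicle 1 and 170 against 170 CPM in vehicle 2 (-0.03 ± 0.06, adjusted p = 0.922). Etv5, another GDNF-responsive factor gene, had a log2 fold change of -0.07 ± 0.07 (adjusted p = 0.784), Foxo1 one of 0.06 ± 0.08 and Pou3f1 one of 0.06 ± 0.07. The 95% counting intervals of Zbtb16 spanned a ratio of 1 in both vehicle libraries (0.861 to 1.08 and 0.906 to 1.11).

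Of 12 genes listed for differentiating spermatogonia, all tested, 5 were higher in positive cells and 1 was lower, with 11 of 12 log2 fold changes above 0 and a median of 0.24. Uchl1 (chr5:66676091-66687234, plus strand), a ubiquitin hydrolase abundant in spermatogonia and also known as a marker of undifferentiated ones, was at 404 against 274 CPM in vehicle 1 and 410 against 282 CPM in vehicle 2, with 24 and 17 UMIs in EV 1. Its ratio was 1.47 (1.36 to 1.60) and 1.45 (1.35 to 1.56), and its log2 fold change 0.54 ± 0.05 (adjusted p = 7.99e-29). Sohlh1, a germ cell transcription factor gene needed for differentiation, was at 18.6 against 7.59 CPM and 17.2 against 9.60 CPM, with 2 and 0 UMIs in EV 1 (1.04 ± 0.23, adjusted p = 0.000468). It did not pass after thinning (0.81, adjusted p = 0.143). Both genes stood higher in positive cells of both vehicle libraries, and EV 1 held too few UMIs of Sohlh1 to show a direction.

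Dnmt3b, a de novo DNA methyltransferase gene, was at 36.5 against 18.4 CPM in vehicle 1 and 36.7 against 28.4 CPM in vehicle 2 (0.61 ± 0.14, adjusted p = 0.00189). Crabp1, which encodes a cytoplasmic retinoic acid binding protein, was at 227 against 164 CPM and 226 against 160 CPM (0.48 ± 0.06, adjusted p = 8.09e-14). Dmrt1, a factor that restrains Stra8 in spermatogonia, was at 332 against 275 CPM and 368 against 302 CPM (0.28 ± 0.05, adjusted p = 6.58e-07). Ccnd2, a D-type cyclin gene that the list holds as a differentiation gene, went the other way at 484 against 543 CPM and 487 against 584 CPM (-0.22 ± 0.04, adjusted p = 1.79e-06), and was at 33 against 26 UMIs in EV 1. Sohlh2 (0.13 ± 0.08), Rhox13 (0.08 ± 0.09), Dnmt3a (0.06 ± 0.12) and Scml2 (0.03 ± 0.05) did not pass.

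Of 22 meiosis genes, 18 were tested and 2 were higher, Sycp3 and Tex11, with 0 lower (1 at an unadjusted p under 0.05) and a median of 0.11. Sycp3 (chr10:88459569-88473236, plus strand), a lateral element protein of the synaptonemal complex, was at 271 against 172 CPM in vehicle 1, 274 against 175 CPM in vehicle 2 and 25 against 16 UMIs in EV 1. Its ratio was 1.58 (1.43 to 1.74) and 1.57 (1.43 to 1.72), and its log2 fold change 0.64 ± 0.05 (adjusted p = 6.87e-29). Tex11, an X-linked meiotic crossover gene, had a log2 fold change of 0.27 ± 0.05 (adjusted p = 8.8e-05).

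The other meiosis genes did not pass or were too low to test. Smc1b, a meiotic cohesin gene, was at 575 against 550 CPM and 613 against 570 CPM (0.08 ± 0.04, adjusted p = 0.283), and Stag3, another, had 0.16 ± 0.07 (adjusted p = 0.23). Sycp2, the partner of Sycp3 in the lateral element, had 0.01 ± 0.08 and Dmc1, the meiotic recombinase gene, -0.01 ± 0.09. Sycp1, Spo11 and Meiob were too low to test, and Tex12 was at 0 in every sum. Rec8, also a meiotic cohesin gene, was at 11.7 against 9.22 CPM and 12.4 against 11.6 CPM (0.17 ± 0.24, adjusted p = 0.864).

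**Figure D3:**
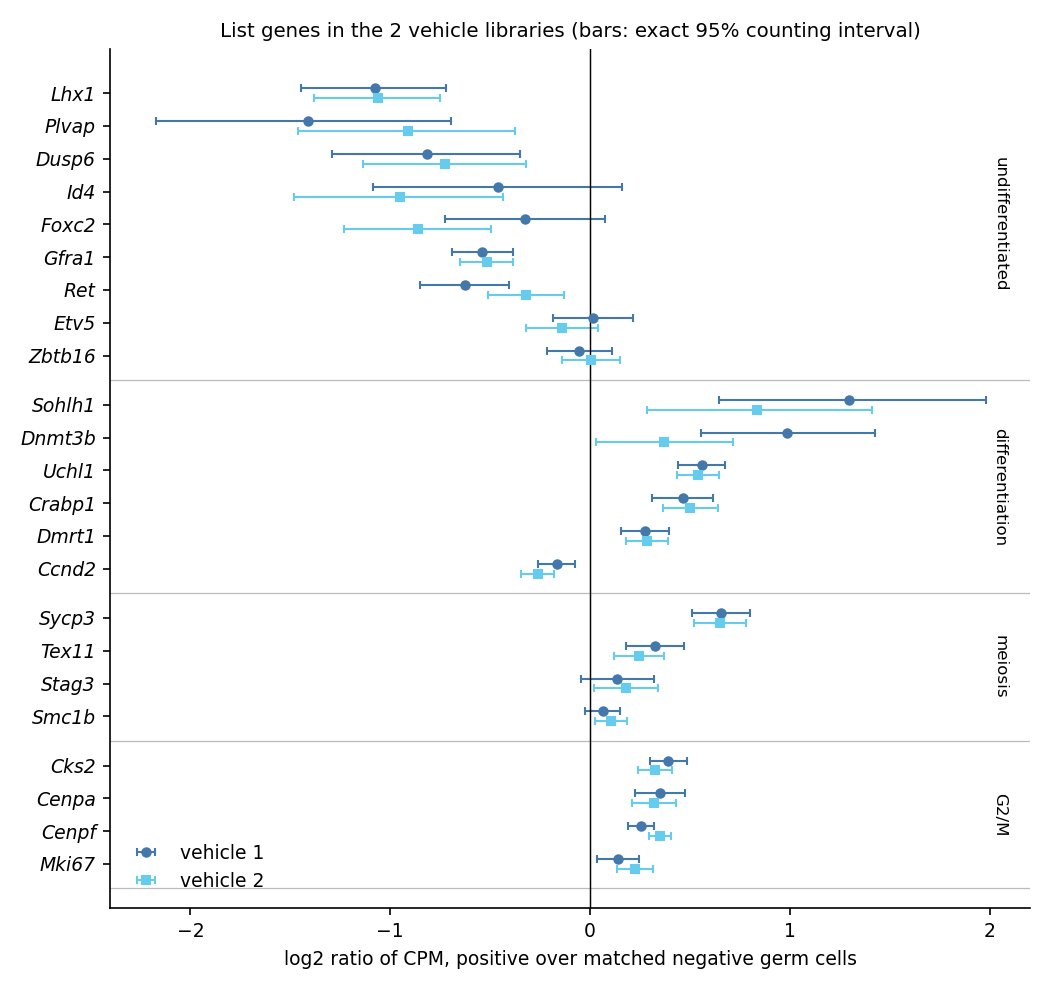
Log2 ratio of CPM in positive over matched negative germ cells for genes of 4 lists, in vehicle 1 (circles) and vehicle 2 (squares), with exact 95% counting intervals. Gfra1, Ret, Lhx1, Plvap and Dusp6 lie left of 0 in both libraries, Zbtb16 and Etv5 span 0, and Sohlh1, Uchl1, Crabp1, Dmrt1, Sycp3, Tex11 and Cenpf lie right of 0.

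Of the progenitor and retinoid genes, Crabp1 alone passed, beside 0.946% of all genes tested that were higher and 2.07% that were lower. Of 7 progenitor genes 6 were tested and 0 passed (0 at an unadjusted p under 0.05), with a median of 0.19. Rarg, the retinoic acid receptor gene associated with readiness to respond to retinoic acid, was at 7.72 against 4.88 CPM and 8.25 against 5.58 CPM (0.59 ± 0.32, adjusted p = 0.464), Rara had 0.22 ± 0.16 and Sox3 0.22 ± 0.16. Neurog3 was below 1 CPM in each vehicle sum and was not tested. Of 20 retinoid handling genes 13 were tested, with a median of -0.0022, Crabp1 being counted in the differentiation list as well, and 1 gene lower at an unadjusted p under 0.05. Cyp26a1, a retinoic acid hydroxylase gene, was at 5.59 against 3.53 CPM and 2.61 against 3.35 CPM, and Cyp26b1 stayed at or below 1.08 CPM in the vehicle sums.

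Of 21 genes of KIT signalling, all tested, 0 passed (0 higher and 1 lower at an unadjusted p under 0.05), and their median was -0.0078. That count is near the 0.946% higher and 2.07% lower called over all genes, so it shows nothing particular to this list. Kitl, the ligand gene, was at 5.33 against 7.86 CPM and 7.60 against 8.04 CPM, with 87.5 CPM in fibroblast-gated cells of vehicle 1. Of 19 known targets of the let-7 microRNA family, 18 were tested, with 1 higher and 2 lower beside 0.946% and 2.07% of all genes. Lin28b, which encodes a repressor of let-7 maturation, was higher (0.29 ± 0.08, adjusted p = 0.0186), and Hmga2 and Ccnd2 were lower, with a median of 6.74e-05 over the list.

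A minority of the genes of mitosis passed the test, each of them higher in positive cells. Of 54 G2/M genes, all tested, 10 were higher and 0 lower (1 at an unadjusted p under 0.05), 48 had a log2 fold change above 0, and the median was 0.12. Cks2, a cyclin-dependent kinase subunit gene, was at 567 against 432 CPM in vehicle 1 and 553 against 441 CPM in vehicle 2 (0.35 ± 0.04, adjusted p = 2.33e-16). Cenpf, a kinetochore gene, was at 1158 against 971 CPM and 1266 against 993 CPM (0.30 ± 0.03, adjusted p = 4.49e-21), and Cenpa, the centromeric histone gene, had 0.33 ± 0.05 (adjusted p = 2.98e-09). The other 7 were Tubb4b, Ube2c, Nusap1, Cenpe, Mki67, Hmgb2 and Top2a, with log2 fold changes of 0.11 to 0.28. Of 43 S phase genes, Hells was higher (0.10) and Cdca7 lower (-0.22), with a median of -0.07, a count near the 0.946% and 2.07% called over all genes.

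Summed over the list, G2/M transcripts made up 111, 115 and 95.5 per 10000 UMIs in positive cells of vehicle 1, vehicle 2 and EV 1, against 101, 102 and 68.3 in matched negative cells, a mean difference of 16.7 ± 9.19 (SD, n = 3). S phase transcripts made up 68.1, 69.8 and 67.4 against 69.2, 69.9 and 60.6, a mean difference of 1.87 ± 4.30. The positive cells were higher for G2/M in each of the 3 libraries, and for S phase in EV 1 alone. An exact permutation test over 3 pairs cannot fall below 0.25, so the sums were not tested.

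Holding cell cycle level left part of the calls in place. In cells matched on total UMIs and on both cycle shares, Sycp3 had a log2 fold change of 0.64, Uchl1 0.56, Crabp1 0.46, Dmrt1 0.26, Sohlh1 0.78, Gfra1 -0.51, Ret -0.45 and Lhx1 -1.01, all past the threshold, and the calls were 82 higher and 194 lower, 228 of them among the 392. Of the 56 genes followed through every setting, 36 kept their call. Those that lost it included Cenpa, Mki67, Nfia, Meis1 and Fhad1, and also Hmgb2 (-0.0127) and Top2a (-0.0181), which had values below 0. The G2/M list then had 2 genes higher and 0 lower with a median of 0.0096, as that matching sets it to do. In those cells 7 undifferentiated genes were lower, 5 differentiation genes were higher and 1 lower, and 2 meiosis genes were higher.

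The genes with the highest log2 fold changes by rule included Erg, Sohlh1, Dusp2, Uchl1os, Shtn1, Sycp3, Phlda2, Rab11fip4, Uchl1, Eef2k and Rbm46. Erg, an ETS transcription factor gene best known in blood and vessels, was at 34.9 against 16.8 CPM in vehicle 1, 43.4 against 17.4 CPM in vehicle 2 and 2 against 0 UMIs in EV 1 (1.21 ± 0.15, adjusted p = 1.51e-12). Of the endothelial markers, Pecam1 had -0.55 ± 0.28 and Kdr -0.39 ± 0.41, neither past the threshold, and Cdh5 was too low to test. Rbm46, an RNA-binding protein gene needed for meiotic entry, was at 231 against 168 CPM and 227 against 156 CPM (0.50 ± 0.06, adjusted p = 2.84e-15). Uchl1os lies antisense to Uchl1, and since counting by strand is not given in the sources used here, its reads cannot be told apart from those of Uchl1. Dusp2 had 0.98, Shtn1 0.67, Phlda2 0.61, Rab11fip4 0.54 and Eef2k 0.51, and each gene named by the rule was higher in all 3 libraries, as the rule required.

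The lowest genes were of another kind. By rule they were Pcdh9, Csmd3, Nfia, Magi2, Fhad1, Etv1, Meis1, Gria3, Prrx1, Mir100hg, Nrp1 and Lhx1, with log2 fold changes from -1.79 to -1.08. All but Fhad1 and Lhx1 were at least 2-fold higher in fibroblast-gated cells than in negative germ cells. Prrx1, a mesenchymal homeobox gene, was at 15.7 against 22.0 CPM and 8.25 against 27.0 CPM, and at 339 CPM in fibroblast-gated cells of vehicle 1. Hmga2, a chromatin protein gene and let-7 target, was at 68.4 against 111 CPM and 62.3 against 146 CPM (a fitted fold of 0.50, adjusted p = 2.08e-31) and at 2125 CPM in fibroblast-gated cells of vehicle 1. After thinning it had a log2 fold change of -0.39 and did not pass (adjusted p = 0.0661).

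Over all calls, 32.3% of the lower genes (87 of 269) were at least 2-fold higher in fibroblast-gated cells, against 2.44% of the higher genes and 14.8% of the genes tested. The summed fibroblast list was lower in positive cells too, as given above, and Fn1 was its 1 gene past the threshold (-0.22 ± 0.07, adjusted p = 0.0448). All 5 genes tested of the 7 on that list were below 0 and at an unadjusted p under 0.05, with a median of -0.49. In cells whose fibroblast gene sum was 0, a setting chosen after the data were seen, 68 genes were higher and 166 lower, and 199 of the 392 calls remained. Fewer matched positive cells were left there (1134, 1300 and 21), and all 382 of the 392 genes that could be fitted kept their direction. There 26 of the 56 genes followed through every setting no longer passed, among them Nfia, Meis1, Etv1, Prrx1, Mir100hg, Nrp1, Gria3, Fhad1, Id4, Foxc2, Dnmt3b and Lin28b, and Pcdh9 and Csmd3 were not among the genes fitted. Gfra1 (-0.54), Lhx1 (-1.14), Plvap (-1.18), Hmga2 (-0.61), Sycp3 (0.66) and Uchl1 (0.52) still passed. The fibroblast list itself still had a median log2 fold change of -0.38 there, so the setting did not even out fibroblast transcripts between the classes. The part of fibroblast transcripts in the lower genes, also in those that still passed, was not tested.

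Early stress genes went both ways. Of 15, all tested, Jund (0.27 ± 0.06) and Mt2 (0.21 ± 0.06) were higher and Ier2 (-0.34 ± 0.09) and Ier3 (-0.36 ± 0.04) lower, with a median of -0.13. Ier3 was at 374 against 438 CPM and 338 against 469 CPM, and Mt2 at 218 against 188 CPM and 208 against 172 CPM but at 26 against 43 UMIs in EV 1. Of 81 cytosolic ribosomal protein genes tested, a group chosen after their values were seen, 19 were lower and 0 higher (0 at an unadjusted p under 0.05), with a median of -0.056. Beside both groups, 0.946% of all genes tested were higher and 2.07% lower. Npm1, a nucleolar chaperone gene of ribosome assembly, was higher at 2358 against 2061 CPM and 2367 against 2092 CPM (0.18 ± 0.02, adjusted p = 9.89e-11).

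In the vehicle libraries Uchl1 and Sycp3 were higher at each step in the number of Stra8 and Kit transcripts, while EV 1 held just 4 cells with 2 UMIs and 1 with more. In cells with 0, 1, 2 and 3 or more UMIs of the pair, Uchl1 was at 280, 362, 446 and 542 CPM in vehicle 1 and at 286, 365, 434 and 562 CPM in vehicle 2. Sycp3 was at 179, 250, 291 and 337 CPM in vehicle 1, and at 185, 248, 285 and 350 CPM in vehicle 2. Gfra1 went from 227 to 164, 170 and 132 CPM, and from 239 to 186, 164 and 150 CPM. Lhx1 was at 51.7, 27.4, 28.6 and 6.84 CPM in vehicle 1 and 62.4, 30.3, 23.6 and 14.3 CPM in vehicle 2.
Lhx1 and Gfra1 were lower at 1 UMI than at 0 in both libraries, but at 2 UMIs neither was below its level at 1 UMI in vehicle 1. Hmga2 was at 93.6, 69.2, 64.3 and 68.4 CPM in vehicle 1 and 109, 54.0, 76.9 and 86.0 CPM in vehicle 2, below its level at 0 UMIs throughout but with no steady order beyond 1 UMI. Zbtb16 was at 170, 168, 179 and 130 CPM in vehicle 1 and 169, 174, 150 and 194 CPM in vehicle 2, also with no steady order. These cells were not depth-matched, and their median totals were 1888, 2138, 2356.5 and 2743 UMIs in vehicle 1 and 2034, 2288, 2611.5 and 3013 in vehicle 2. With members limited to at least 2 UMIs and depth matched, the log2 fold changes were 0.93 for Sycp3, 0.83 for Uchl1, 1.51 for Sohlh1, 1.66 for Erg, -0.70 for Gfra1, -1.40 for Lhx1 and -1.49 for Hmga2, each past the threshold.

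**Figure D4:**
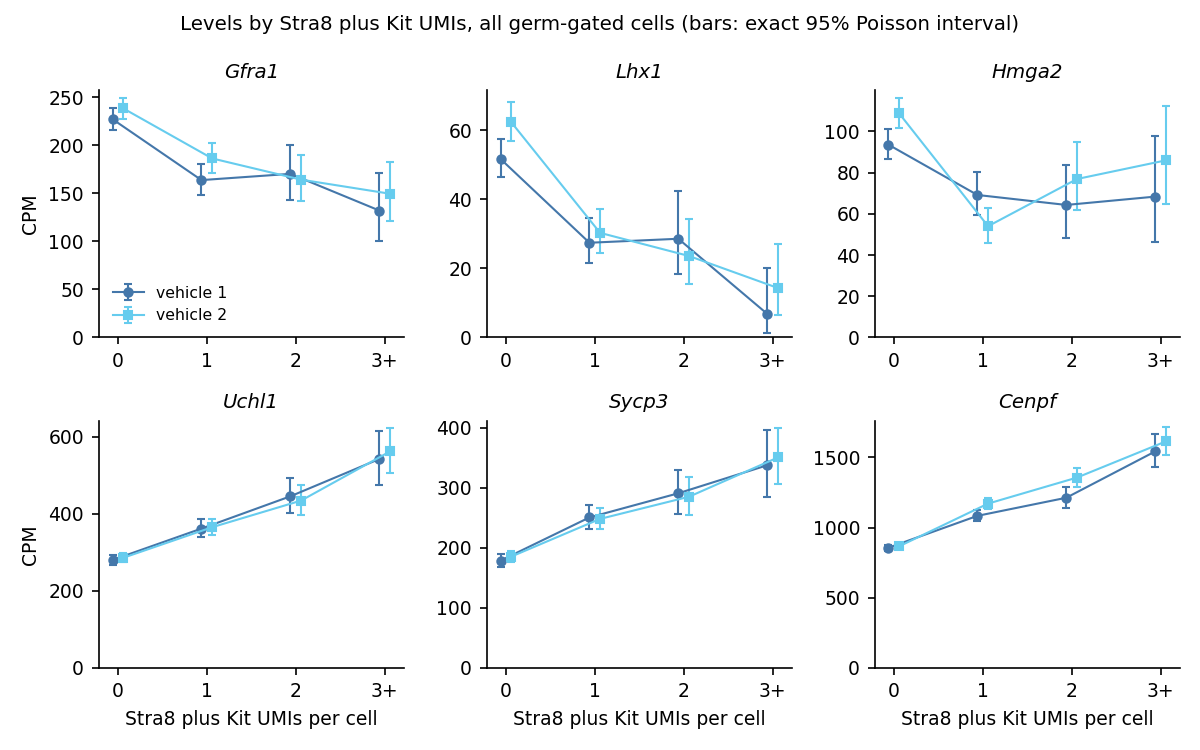
Levels in CPM of 6 genes in germ-gated cells with 0, 1, 2 and 3 or more UMIs of Stra8 plus Kit, in vehicle 1 (circles) and vehicle 2 (squares), with exact 95% Poisson intervals. Uchl1 goes from 280 to 542 CPM and from 286 to 562 CPM, and Gfra1 from 227 to 132 CPM and from 239 to 150 CPM.

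Stra8 and Kit were also taken singly. Stra8 positive against depth-matched Stra8 negative cells gave 115 genes higher (0.908%) and 214 lower (1.69%) of 12666 tested. Kit positive against Kit negative cells, with fewer cells, gave 14 higher (0.147%) and 22 lower (0.232%) of 9500. Without vehicle 1 or without vehicle 2 the Stra8 comparison gave 0 calls (158 and 86 genes at an unadjusted p under 0.05) and the Kit comparison 0 higher and 1 lower, and DESeq2 gave 0 higher and 1 lower for Stra8 and 0 for Kit (25 at an unadjusted p under 0.05). For Kit, no gene passed without a filter on low counts (573 at an unadjusted p under 0.05), and 0 higher and 12 lower passed without the library term. Sycp3 was higher in both (0.63 and 0.48), as were Uchl1 (0.47 and 0.54), Crabp1 (0.45 and 0.54), Dmrt1 (0.31 and 0.34), Rbm46 (0.47 and 0.53) and Cenpf (0.21 and 0.35). Gfra1 was lower with Stra8 (-0.55, adjusted p = 7.7e-18) and had -0.28 (adjusted p = 0.47) with Kit. Lhx1 had -1.11 with Stra8 and -0.86 (adjusted p = 0.13) with Kit. Cells with both genes could enter both comparisons, and the differences between the comparisons were not tested as such.

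The direct comparison of Stra8-only with Kit-only cells held 231 matched cells of each kind in vehicle 1 and 258 in vehicle 2, and EV 1 was left out with 8. Of 8419 genes, 11 (0.131%) were higher in Stra8-only cells and 0 lower (269 at an unadjusted p under 0.05). The 6 named by rule were Ddit4, a stress-induced inhibitor of mTORC1 (0.89 ± 0.19, adjusted p = 0.019), Mt1, a metallothionein gene (0.34 ± 0.07), Rpl27a (0.23), Rps14 (0.21), Npm1 (0.20) and H3f3b (0.20). Sycp3 (0.25, adjusted p = 0.66), Uchl1 (-0.07, adjusted p = 0.93), Gfra1 (-0.28, adjusted p = 0.68) and Cenpf (-0.13, adjusted p = 0.59) did not pass. No gene passed in DESeq2 on the same sums (13 at an unadjusted p under 0.05), and none in edgeR with DESeq2 size factors (483). A gene that missed the threshold here is not shown to be alike in the 2 kinds of cells.

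Positive cells of EV 1 were set beside those of the vehicle libraries, as values without a test, since 34 cells of 1 library carry the EV side. Stra8 was at 469, 443 and 468 CPM and Kit at 108, 108 and 177 CPM in vehicle 1, vehicle 2 and EV 1, where the members themselves were chosen by these genes. The differentiation list had an EV to vehicle ratio of summed CPM of 0.982 (exact 95% counting interval 0.814 to 1.18) and the meiosis list one of 1.10 (0.941 to 1.29), both spanning 1. The undifferentiated list stood at 0.817 (0.627 to 1.05). Within it Zbtb16 was at 166, 171 and 32.2 CPM, the last from 2 UMIs, a ratio of 0.191 (0.0231 to 0.692), and Gfra1 at 162, 176 and 80.6 CPM, a ratio of 0.475 (0.154 to 1.11).

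Sycp3 was at 269, 270 and 468 CPM (ratio 1.73, 1.16 to 2.50), and Uchl1 was at 400, 407 and 403 CPM (0.997, 0.644 to 1.47). Early stress genes summed to 1960, 1788 and 3886 CPM, a ratio of 2.08 (1.83 to 2.37), with Mt1 at 734, 626 and 1935 CPM and Ier3 at 373, 337 and 677 CPM. Hmga2 was at 68.0, 63.6 and 210 CPM (3.20, 1.69 to 5.51). The fibroblast list moved the same way, at 182, 182 and 290 CPM (1.60, 0.943 to 2.53), as did the fibroblast gate genes at 132, 109 and 177 CPM, and their part in these EV values was not tested. G2/M genes stood at 0.841 (0.774 to 0.912), with Cenpf at 1164, 1273 and 871 CPM, but against vehicle cells matched to the EV cells in total UMIs the log2 ratio of the list was 0.09.

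Gaps of the same direction were read in cells that are not members. In germ cells without Stra8 and Kit, Sycp3 was at 179, 185 and 354 CPM in vehicle 1, vehicle 2 and EV 1, Hmga2 at 93.6, 109 and 343 CPM, Gfra1 at 227, 239 and 93.7 CPM and Zbtb16 at 170, 169 and 45.1 CPM. Early stress genes summed to 1901, 1865 and 5968 CPM in matched negative cells, and to 5274, 5159 and 13433 CPM in fibroblast-gated cells.

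**Figure D5:**
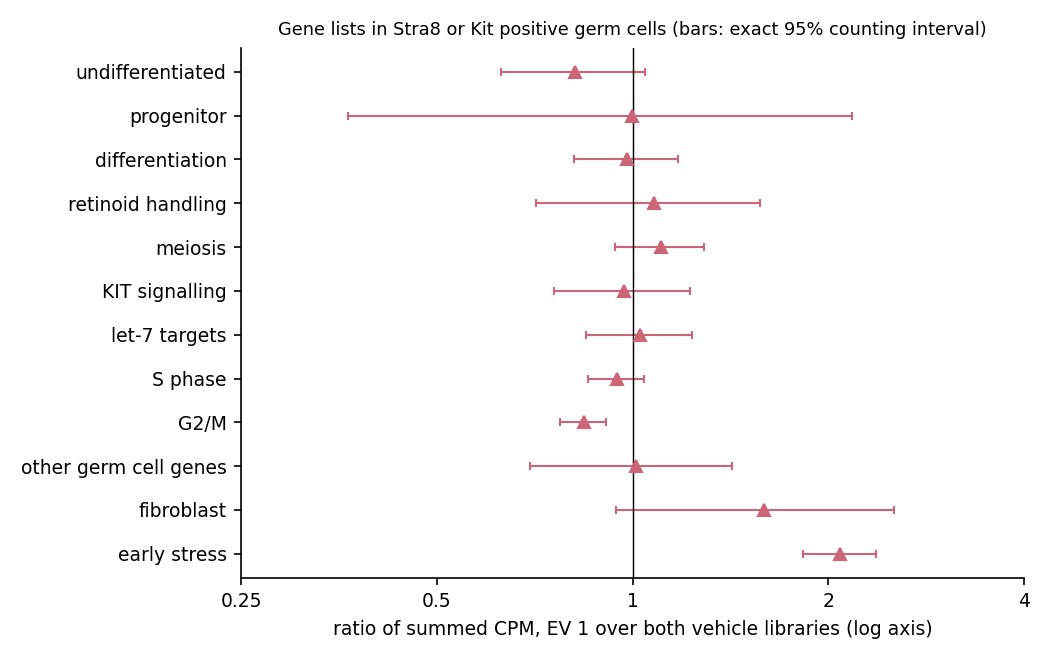
Ratio of summed CPM in positive germ cells, EV 1 over both vehicle libraries together, for 12 gene lists on a log axis, with exact 95% counting intervals from 34 EV cells. The differentiation list lies at 0.982, the G2/M list at 0.841 and the early stress list at 2.08.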

How the data were processed

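Droplet single-cell RNA-seq was read as UMI counts per gene and barcode. The deposited count matrices were made by the authors with Cell Ranger 7.0.1 on mm10 with GENCODE annotation, per the labels and the methods of the study, as 1 table per library without normalisation, with barcodes already called as cells. All deposited barcodes of the 3 count tables held at least 500 UMIs. Strand of counting is not given in the sources used here. Gene positions were taken by gene ID from a GENCODE annotation of GRCm38, and promoter windows from RefSeq (GRCm38.p6). EV replicate 2 was not analysed here beyond its barcodes.

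Counts were summed per library and class of cells, so that libraries and not cells were the replicates. Positive and negative germ cells were paired 1 to 1 within a library on their UMIs outside Stra8 and Kit (nearest, without reuse, within 10%). Sums were tested with edgeR 4.0.16 (R 4.3.3; TMM normalisation, filterByExpr with a minimum count of 10, quasi-likelihood test, library as a term, Benjamini-Hochberg adjustment over all genes tested, threshold 0.05), and again with DESeq2 1.42.0. Stra8, Kit and the 8 gate genes stayed in the fit but out of the adjustment, except that Kit was tested between Stra8 positive and negative cells and Stra8 between Kit positive and negative cells. The library term pairs the classes because both come from the same library. Cell classes, thinning and Scrublet scores (scanpy 1.11.5, Python 3.11.15) were computed per library. Cells with the highest Scrublet scores, at an expected rate of 0.8% per 1000 cells, were kept and left out in an alternative. Shares have 95% Wilson intervals, CPM exact Poisson intervals and ratios exact conditional intervals. The fit was tested on simulated counts with known fold changes. These were drawn at the dispersion that edgeR had estimated, so that estimate itself was not tested.

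Beside the gene lists, the text names the 12 highest and 12 lowest log2 fold changes among genes past the threshold with at least 100 UMIs and the same direction in all 3 libraries, and for Stra8-only against Kit-only cells 6 each way. Of the 12 highest, 1 is not reported here. The members, lists and tests were chosen with earlier results of these data known. Alternatives were another size factor, other filters, no library term, other matching, thinning, stricter gates and leaving out each library. Cells with a fibroblast sum of 0 were added as an alternative after seeing the data.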

Additional observations from a re-analysis of the deposited data

Results flagged for a closer look

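Some values differed in direction between the arms, and none of these differences was tested. Positive minus matched negative cells, the S phase transcript sum stood at -1.15 and -0.0187 per 10000 UMIs in the vehicle libraries and at 6.79 in EV 1. Summed over the undifferentiated list, the ratio of positive to matched negative CPM was 0.845 and 0.846 in the vehicle libraries and 1.46 in EV 1, and over the let-7 target list it was 0.963, 0.898 and 1.08. The ratio of positive to matched negative CPM in EV 1 went against both vehicle libraries for Ccnd2 (1.26 against 0.891 and 0.834), Tubb4b (0.862 against 1.20 and 1.24) and Mt2 (0.598 against 1.16 and 1.21). These EV 1 values rest on 33 against 26, 27 against 31 and 26 against 43 UMIs in 32 positive and as many negative cells. Lin28b and Ube2c, higher in positive cells of the vehicle libraries (1.27 and 1.20, 1.11 and 1.25), had 7 UMIs on each side in EV 1, a ratio of 0.99 that shows no direction.

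Stra8 or Kit UMIs were also found outside the germ gate, above the fibroblast-gated cells. Among barcodes that passed neither gate, the share with a UMI of either gene was 11.7% in vehicle 1, 9.79% in vehicle 2 and 0.813% in EV 1. Among barcodes left out by the cell filter it was 6.33% in vehicle 1 and 6.68% in vehicle 2, and 1.10% in EV 1 (3 of 272, 0.376 to 3.19%), an interval that overlapped that of the fibroblast-gated cells there. Groups of 2 libraries are too small for a test of single outlying samples.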

How the results depend on the processing

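Of the 392 calls between positive and matched negative cells (123 higher, 269 lower), DESeq2 gave 0 and 0 (87 genes at an unadjusted p under 0.05), no filter on low counts 38 and 100, no matching 269 and 421, thinning to 1000 UMIs 67 and 122, and a fibroblast sum of 0, chosen after seeing the data, 68 and 166. The median dispersion was 0.000243 in edgeR (trended) and 0.0508 in DESeq2. Leaving out 1 library gave 0 to 185 higher and 0 to 343 lower, with 0 without either vehicle library. Without the library term (no replicate block) there were 24 higher and 127 lower, Kit in Stra8 positive cells had 0.62, Stra8 in Kit positive cells no longer passed (0.452), and Stra8-only against Kit-only cells gave 0 calls.

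Of the 56 named genes past the threshold, 56 kept their call with DESeq2 size factors and 56 without EV 1, while none kept it without vehicle 1 or without vehicle 2. In the latter Mt2 turned to -0.0104 (-0.0104 to 0.239 over the libraries left out), and Hmgb2 (-0.0127) and Top2a (-0.0181) turned under cycle matching. Kit in Stra8 positive cells no longer passed with DESeq2 (0.585), thinning (0.493) or without a vehicle library (0.55 to 0.644 over all libraries left out). Stra8 in Kit positive cells no longer passed with DESeq2 (0.423), no filter (0.456), a fibroblast sum of 0 (0.379), thinning (0.499), a germ sum of 4 (0.425) or without a vehicle library (0.402 to 0.464 over all libraries left out). The 11 Stra8-only calls became 0 with DESeq2, DESeq2 size factors, no filter, doublets removed and a germ sum of 4 (13, 483, 433, 584 and 526 genes at an unadjusted p under 0.05), 17 with at least 100 UMIs, and 13 higher and 4 lower with no matching. Leaving out a vehicle library there leaves 1 library, which could not be fitted.

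The EV minus vehicle share of -18.7 points was -5.14 after thinning, -10.5 at 1000 to 2000 UMIs, -8.19 for 2 or more UMIs, -17.6 for Stra8, -3.66 for Kit and -16.1 at a germ sum of 4. With DESeq2 size factors the EV to vehicle log2 ratio was -0.11 for meiosis (main 0.15), -0.51 for G2/M (-0.25), -0.34 for S phase (-0.08) and 0.79 for early stress (1.05), and depth-matched vehicle cells gave 0.0902 for G2/M. The same size factors gave -0.54 for the undifferentiated list (main -0.28) and -0.28 for the differentiation list (-0.02), both still within their main counting intervals. In cells with 2 or more UMIs the G2/M difference was 31.0 ± 23.4 per 10000 UMIs (SD, n = 3), from 120 against 102, 122 against 105 and, in 4 cells of EV 1, 103 against 44.8. The cause of these shifts was not tested. No paired analysis was made between the arms, since the labels number the replicates without pairing the cultures. Counts were used from 1 EV library. Depth limits nearly every gene in the 34 EV cells.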
